A study of Saccharomyces cerevisiae with 8 samples.

Results

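The nucleotides of yeast 25S rRNA from A1446 to G1875, roughly domain III of the large subunit, were examined for their mutation rates under dimethyl sulfate (DMS). They were chosen by position alone and numbered 430 of the 5475 rRNA nucleotides measured, with 110 A, 92 C, 124 G and 104 U. Ribosomes (80S) purified from Saccharomyces cerevisiae met a drug in the test tube before 8 min in 90 mM DMS, and the question was where on the rRNA each drug binds. Of the 8 libraries, 1 per condition, those with a drug and DMS held the sponge alkaloid agelastatin A (AglA), at 0.5 or 1.0 mM, or cycloheximide (CHX), an inhibitor of elongation, at 10, 50 or 1000 µM. The other 3 held ribosomes with dimethyl sulfoxide (DMSO), a solvent, plus DMS, ribosomes with no addition other than DMS, and ribosomes without DMS. The labels name neither the strain nor whether the libraries came from separate ribosome preparations. A mutation rate is the proportion of reads with a mismatch at a position. Since the depth is unknown, the rates carry no counting interval. With 1 library per condition, no difference between conditions had a replicate check.

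DMS adds a methyl group to adenosine and cytidine on the edge used for base pairing, unless a pair, protein or ligand covers it, and the reverse transcriptase used here reads through the methylated base and leaves a mismatch. Domain III is a compact part of the large subunit on the side of the peptide exit tunnel, away from the face that meets the small subunit. It carries the main binding site of the ribosomal protein uL23 (Rpl25 in yeast), which lies beside the mouth of the tunnel, where factors dock that act on the emerging chain. CHX binds the E site and the peptidyl transferase centre is the catalytic site of the subunit, and both are built mainly of domain V. The domain's name was taken from the position range, because the deposited table holds no structural annotation.

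Flanks of 5 nucleotides were added to every run of at least 3 tested A or C in which neighbours lay at most 3 positions apart, and the resulting 5 stretches show where signal was densest. Capitals mark the A and C whose rate averaged 0.5% or more across the 7 libraries with DMS, called tested from here on. Each line is rRNA, 5′ to 3′, from the deposited table with T written as U.
25S 1551-1564: cguuuCAaAggccu
25S 1575-1588: aggccACCAucgaa
25S 1752-1767: aggccAgcACCuuugc
25S 1808-1821: gAaggAAuAguuuu
25S 1841-1855: aaccgCAgcAggucu
In the first annotated copy of the gene, RDN25-1, on the minus strand of chromosome XII (build sacCer3, R64), these are chrXII:453618-453631, chrXII:453594-453607, chrXII:453415-453430, chrXII:453361-453374 and chrXII:453327-453341. The whole region is chrXII:453307-453736, within the exonic, non-coding rRNA gene, and stands for all rDNA copies.

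The highest mean rate in the region belonged to A1656, shown with 10 nucleotides on each side (chrXII:453516-453536, minus strand).
25S 1646-1666: gAauguggagAcgucggcgcg
A1656 closes a GAGA sequence, and the same 4 letters end in A1731 further along the domain. Both were shown with the 4 letters in capitals, because these letters are flanked by 3 complementary pairs in sequence and so could form a tetraloop of the GNRA kind, a loop of 4 bases common in rRNA (chrXII:453518-453537 and chrXII:453443-453462, minus strand).
25S 1645-1664: ugaaugugGAGAcgucggcg
25S 1720-1739: uuuauccgGAGAuggggucu

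With DMS, mutation rates in the region rose mainly at adenosines and at few cytidines. The 110 adenosines had a median rate of 0.226% with DMS and DMSO and 0.239% with DMS and no addition, against 0.0374% without DMS. The 92 cytidines had medians of 0.0838% with DMS and DMSO and 0.0934% with DMS and no addition, against 0.0596% without DMS. At least 4-fold more signal than without DMS, with DMSO and also with no addition, after 0.1 percentage points were added to each rate, was found at 37 of the 202 A and C (18.3%). Of these 30 were A and 7 were C, and the same rule called 20.1% of all A and C in the 4 rRNAs. The count depended on the constant added, with 71 at 0.01 percentage points and 8 at 1 percentage point, and at 10-fold in place of 4-fold it was 18. At these settings the share of all A and C was not counted, so the change cannot be set against the other nucleotides. Among the 228 G and U, 2 passed the 4-fold rule (G1521 and G1604), and it called 0.747% of all G and U.

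The filter on low rates kept 39 A and C of the region, 31 A and 8 C, or 19.3% of its 202, and kept 20.3% of all A and C in the 4 rRNAs. The members nearest the bound were C1556, A1757 and A1449 just inside, with means of 0.510%, 0.518% and 0.604%, and C1548, A1482 and A1842 just outside, with 0.464%, 0.462% and 0.456%. Of the 39 tested nucleotides, 36 also passed the 4-fold rule, and the exceptions were A1449, A1757 and C1556. A1482 passed the 4-fold rule without reaching 0.5%. The remaining A and C had mean rates under 0.5% with DMS. No nucleotide of the region was listed at 0 in any library, and none reached 0.5% without DMS.

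**Figure D1:**
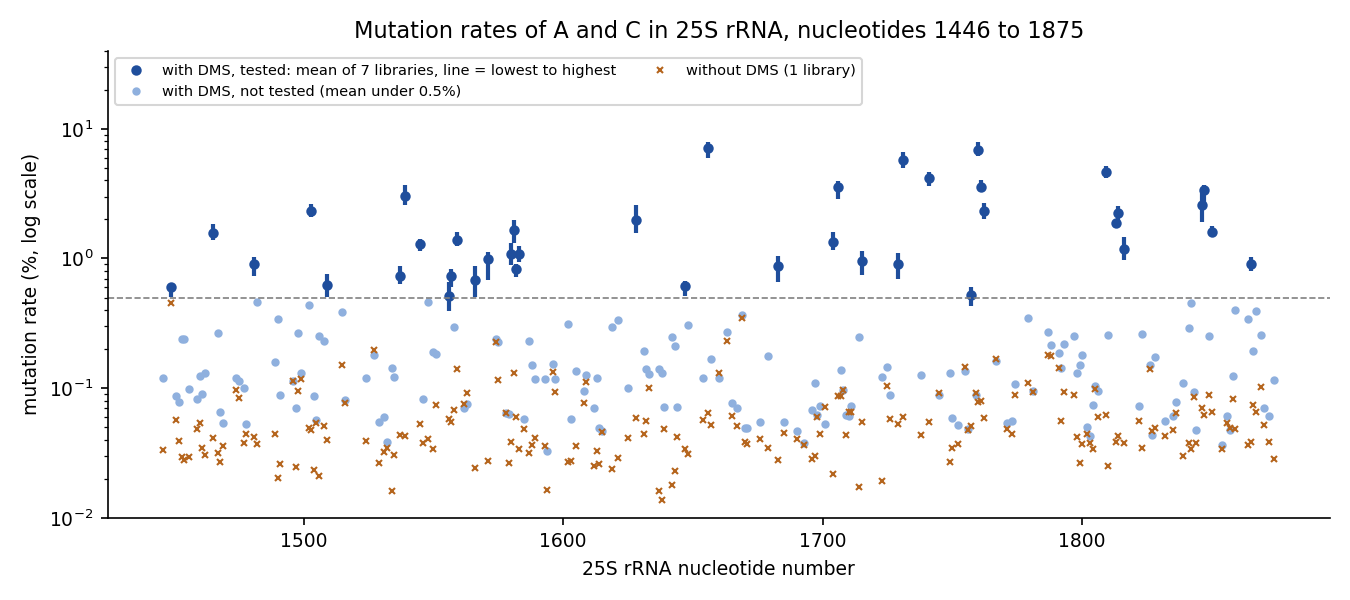
Mutation rates (log axis) of the 202 A and C of the region against nucleotide number. Dark points are means over the 7 DMS libraries for the 39 tested nucleotides, with lines from the lowest to the highest library, light points are the remaining A and C, and crosses are the library without DMS. The highest point is A1656 at 7.12%, and crosses stay under 0.5%.

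The share of A and C that were tested varied along the region, and whether it varied more than under random placement was not tested. In 5 consecutive windows of 86 nucleotides, 5 of 41, 12 of 43, 4 of 36, 10 of 35 and 8 of 47 A and C were tested. The longest stretches without a tested nucleotide ran from 1763 to 1808 (46 nucleotides) and from 1584 to 1627 (44 nucleotides). Each held 20 A and C, with highest mean rates of 0.348% and 0.334%. The order of the 39 rates was nearly the same in every DMS library, with Spearman's rho from 0.977 to 0.995 over the 21 pairs of libraries, a description across nucleotides of 1 rRNA that share bases and read processing.

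A1656, A1760 and A1731 had the highest rates. A1656 had 7.76% and 7.63% with 0.5 and 1.0 mM AglA, 7.90% with DMSO, and 7.40%, 5.94%, 6.70% and 6.50% with no addition and 10, 50 and 1000 µM CHX, against 0.0647% without DMS. A1760 had 6.58% and 6.53% with AglA, 7.14% with DMSO, and 7.91%, 6.16%, 7.04% and 6.67% with no addition and rising CHX, against 0.0782% without DMS. A1731 had 5.99% and 6.14% with AglA, 6.60% with DMSO, and 6.10%, 5.11%, 5.24% and 4.98% with no addition and rising CHX, against 0.0597% without DMS. In all 3, every DMS library lay far above the library without DMS, and the DMS libraries lay close together. The no-addition rates were 114, 101 and 102 times those without DMS. The next highest means over the 7 DMS libraries, which are different conditions and not replicates, were 4.63% ± 0.337 at A1809, 4.14% ± 0.392 at A1741, 3.58% ± 0.439 at C1706, 3.58% ± 0.277 at C1761, 3.36% ± 0.391 at A1847, 3.05% ± 0.421 at A1539 and 2.59% ± 0.629 at C1846 (SD, n = 7 libraries). Among the 39, the highest of the 7 DMS rates was 1.16 to 1.73 times the lowest, with a median of 1.37. The lowest ratio was at A1813 and the highest at C1846.

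The second strongest member, A1760, lies in the stretch 25S 1752-1767. There 3 adjacent nucleotides ACC were tested, A1760, C1761 and C1762, with mean rates of 6.86%, 3.58% and 2.33%. The same 3 letters in 25S 1575-1588, A1580, C1581 and C1582, had 1.09%, 1.65% and 0.825%, followed by A1583 with 1.08%. ACC occurred 5 times in the region, on the rRNA strand, and at the other 3 places none of the letters was tested. Elsewhere in the 4 rRNAs it occurred 59 times, and its A was tested at 15 of them, the central C at 3 and the last C at 2. The rates descended along A1760, C1761 and C1762 in each of the 7 DMS libraries, while C1581 was above both of its neighbours.

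GAGA, searched on the rRNA strand after the rates had been seen, occurred 4 times in the region and 20 times elsewhere. The last A was tested at 3 of the 4 and at 4 of the 20. In the region its mean rates were 7.12% at A1656, 5.74% at A1731, 3.05% at A1539 and 0.266% at the fourth place, where the first A, A1465, was the tested one, at 1.57%. The first A had 0.911% at A1729 and 0.739% at A1537, below the last A in both, and 0.120% in the sequence of A1656. Around A1539 and A1731 the identity extended to 9 letters, GAGAUGGGG, a run that occurred at these 2 places only among the 4 rRNAs. Of the sequences GNAA and GNGA closed by 3 complementary pairs (G-U allowed), 4 lay in the region and 31 elsewhere in the 4 rRNAs, with the last A tested at 2 and at 13. Beside those of A1656 and A1731, the loops at 1635 to 1638 and 1664 to 1667 had mean rates from 0.0625% to 0.377%. The match is one of letters, and whether these runs form tetraloops in the ribosome was not tested.

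In yeast, A1449 and G1450 are known to carry a methyl group on the ribose, a modification that leaves the base-pairing edge free. A1449 had 0.636% and 0.631% with AglA, 0.623% with DMSO, and 0.638%, 0.509%, 0.615% and 0.574% with no addition and rising CHX, against 0.452% without DMS. Its DMSO and no-addition rates were 1.38 and 1.41 times the rate without DMS, and its rate without DMS was the highest in the region. The next highest rate without DMS among the tested members was 0.142%, at A1559. G1450 had 0.116% with DMSO and 0.185% with no addition, against 0.112% without DMS.

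Compared with the other segments of 25S rRNA, the region held a similar share of tested A and C but none with a high rate. The share tested was 19.3% in the region and 18.6% in the rest of 25S (253 of 1359). A645 and A2142, outside the region, averaged 86.5% and 55.7% with DMS but had 87.6% and 56.1% without it, so maxima were compared over the tested nucleotides that passed the 4-fold rule, a choice made after the data were seen. The highest mean rate was then 7.12% in the region, whereas the highest in each of the other 8 segments lay between 20.9% and 77.3%. None in the region averaged at least 10%, against 1 to 4 in each of the other segments. The median over all tested nucleotides was 1.33% in the region, 1.73% in the segment just before it (40 tested) and 1.70% in the last segment of 25S (37 tested). It was 2.49% in the segment just after the region, and the other 8 segments ranged from 1.64% to 6.21%. Outside 25S, the median was 1.27% in 18S, below that of the region. The highest mean rate in 5.8S was 3.09%, also below that of the region. A1656 ranked 35 among the 292 tested nucleotides of 25S and 52 among all 514. These are descriptions, and no test of the difference was made.

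**Figure D2:**
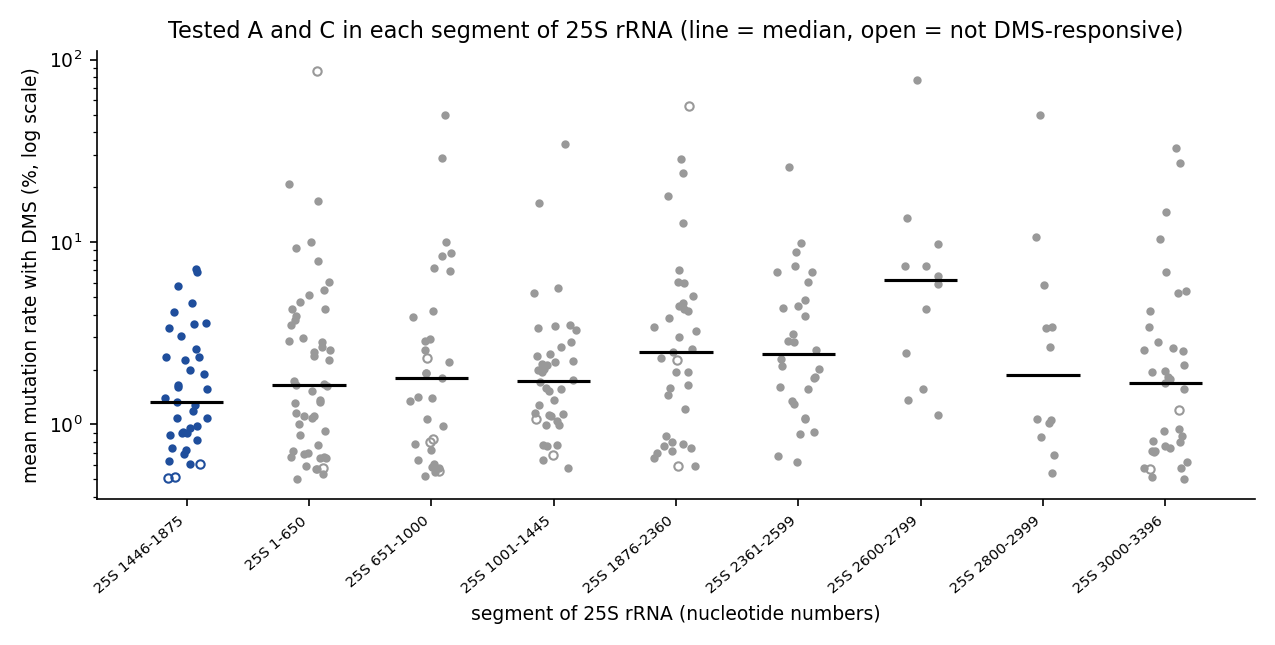
Mean mutation rate over the 7 DMS libraries (log axis) of each tested A or C in the 9 segments of 25S rRNA, with the region at the left in blue. Horizontal lines are medians, 1.33% in the region. Open points did not pass the 4-fold rule for DMS. No blue point lies above 7.12%, and every other segment has at least 1 filled point above 20%.

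The tested nucleotides were more often predicted to be unpaired than the other A and C, although several strong ones were not. The sequence of the region was folded alone with RNAfold at 37 °C, without proteins or the rest of the rRNA, so the result is a prediction and not the structure in the ribosome. A probability of at least 0.5 of being unpaired was given to 25 of the 39 tested (64.1%) and to 35.6% of the other A and C (58 of them). The mean rate had a median of 0.252% over the 83 A and C predicted unpaired and 0.100% over the 119 predicted paired. Across the 202 A and C, which share 1 predicted fold, Spearman's rho of rate and probability was 0.40. The segment just before the region and the last segment of 25S, folded in the same way, had 80.0% (32 of 40) and 78.4% (29 of 37) of their tested nucleotides predicted unpaired. Of their other A and C, 37.4% and 27.0% were predicted unpaired. In the region, A1656, A1760 and A1741 had probabilities of 0.270, 0.274 and 0.425 in spite of rates above 4%. For A1539, C1846 and A1503 these were 0.0039, 0.0095 and 0.0788.

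**Figure D3:**
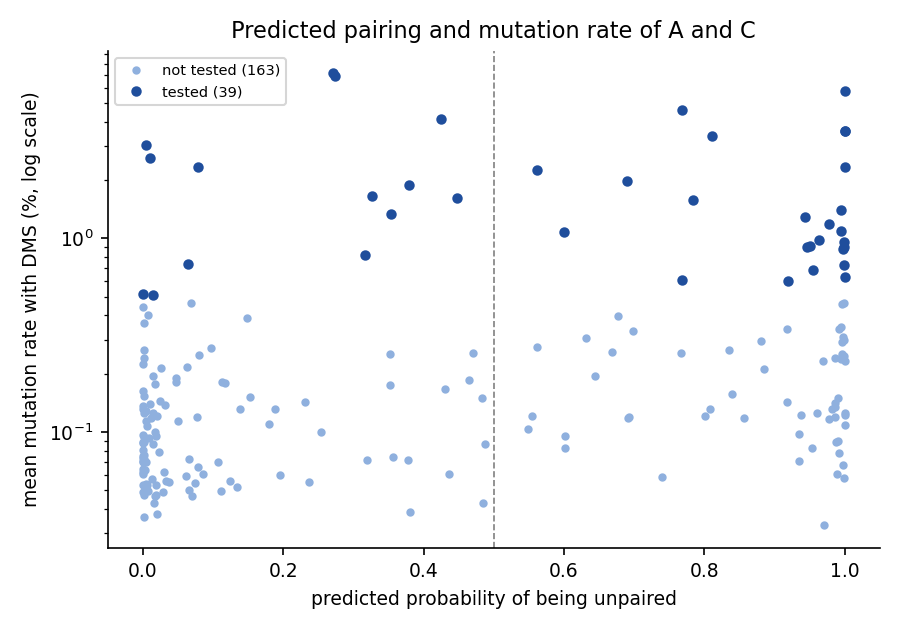
Mean mutation rate with DMS (log axis) against the predicted probability of being unpaired for the 39 tested (dark) and the other (light) A and C of the region. Of the dark points 25 lie right of the dashed line at 0.5, and both points near 7% lie left of it.

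For the comparisons with drugs, rates were put on the scale log2(rate + 0.001), less the library's own median over the 514 tested nucleotides, so ratios are relative to that median and low rates are shrunk. Before this centring the CHX libraries were lower than the no-addition library over the whole region. The median log2 difference from no addition over the 39 members was -0.31, -0.17 and -0.23 with 10, 50 and 1000 µM CHX, and 39, 38 and 37 of the 39 were lower. Over all 514 nucleotides the medians were -0.33, -0.17 and -0.23. With 0.5 and 1.0 mM AglA the members' medians against DMSO were -0.07 and -0.10, and all nucleotides had -0.07 and -0.05.

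DMSO itself differed from no addition by less than 2-fold at every tested member of the region. None of the 39 passed a 2-fold bound, by which 0.389% of the 514 were called. The ratios of DMSO to no addition had a median of 0.09 and an SD of 0.15 on the log2 scale over the 39 members, and a median of 0.04 and an SD of 0.20 over the other 475. They were largest at C1846 (0.45), C1628 (0.39), A1537 (0.34), C1556 (0.32) and A1816 (0.32), all higher with DMSO. C1556 passed the 0.5% filter narrowly, with a mean of 0.510% that includes the DMSO library, its highest at 0.653%. Its place in this list is therefore not independent of the filter. C1628 had 2.58% with DMSO and 2.04% with no addition. A1816 had 1.46% with DMSO and 1.20% with no addition. On the low side were A1757 (-0.17), A1683 (-0.16), A1704 (-0.12), A1865 (-0.10) and A1760 (-0.09). No spread between repeats of either condition is known, so whether these ratios exceed it was not tested.

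With AglA no tested nucleotide of the region passed the 2-fold rule. The rule asked for a log2 ratio of 1 or more, up or down, over DMSO and in the same direction over no addition. This called 0 of the 39 members at either dose, where 0.195% of all 514 were called, that is C2821 of the peptidyl transferase centre, outside the region. Against DMSO, the members' log2 ratios had an SD of 0.12 and 0.13 at 0.5 and 1.0 mM, below the 0.15 between DMSO and no addition. They ranged from -0.34 to 0.26 at 0.5 mM and from -0.32 to 0.37 at 1.0 mM. Over both doses the lowest mean ratios were at A1566 (-0.30), C1556 (-0.22), C1628 (-0.22), A1580 (-0.17) and A1557 (-0.16), and the highest at A1757 (0.31), A1481 (0.20), A1571 (0.15), A1683 (0.13) and A1503 (0.09). Each of these 10 had the same sign at both doses. They were picked on the mean of both doses, and both ratios share the DMSO library. The 0.5% filter used a mean that includes the AglA and DMSO libraries. A1757 and C1556 passed it narrowly, with means of 0.518% and 0.510%, so their place among the members is not independent of these ratios. Of all 39 members, 18 (46.2%) were lower and 12 (30.8%) higher at both doses, against 36.4% and 36.6% of the other 475. Over no addition the mean ratio had the opposite sign at C1556 (0.09), C1628 (0.16), A1580 (0.02) and A1683 (-0.02), and the same sign at the rest. A1566 had 0.634% and 0.685% with AglA and 0.870% with DMSO. A1757 had 0.541% and 0.601% with AglA and 0.462% with DMSO, while its no-addition rate was 0.557%, between both doses.

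A test by limma set both AglA libraries against both libraries without drug, with the 3 CHX libraries in the same fit, so doses stand in for replicates and its p-values measure only the spread among single libraries. It called 0 of the 39 members after Benjamini-Hochberg adjustment over all 514 nucleotides, with 3 at an unadjusted p under 0.05 (A1481, A1503 and A1757, all higher), and called 0.195% of all. The smallest adjusted p in the region was 0.403 in limma. A1757, with a mean of 0.518%, passed the 0.5% filter narrowly on a mean that includes both AglA libraries. At A1481, with 1.01% and 1.03% under AglA against 0.911% with DMSO and 0.906% with no addition, the difference was 0.24 (SE 0.070, limma adjusted p = 0.403, higher in 2 of 2 AglA libraries). Leaving out the DMSO library set AglA against no addition alone. This contrast also holds the difference between DMSO and no addition, and its share called over all nucleotides was not counted. Calls at A1503, A1537, C1706 and C1846 depended on this step. Their mean log2 ratios of AglA over no addition were 0.28, 0.38, 0.22 and 0.46. Those of DMSO over no addition were 0.19, 0.34, 0.16 and 0.45, and those of AglA over DMSO 0.09, 0.04, 0.05 and 0.01.

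With CHX no tested nucleotide of the region passed the 2-fold rule once library medians were subtracted. By the 2-fold rule 0 of the 39 members were called at 10, 50 or 1000 µM, against 0.195% of all 514 at each dose, the nucleotide called being C2764 in the E site. Against no addition the members' log2 ratios had an SD of 0.11, 0.10 and 0.13 at the rising doses, and ranged over the 3 doses from -0.35 to 0.28. Over the 3 doses the lowest mean ratios were at A1566 (-0.17), A1715 (-0.16), A1729 (-0.12), A1704 (-0.09) and A1683 (-0.09). The highest were at A1537 (0.22), A1503 (0.21), A1813 (0.14), C1582 (0.13) and A1509 (0.13). A1566 and A1729 had that sign at 2 of the 3 doses, and the other 8 at all 3. They were picked on the mean of the 3 doses, and all 3 ratios share the no-addition library. Of all 39 members, 3 (7.69%) were lower and 15 (38.5%) higher at all 3 doses, against 14.9% and 40.4% of the other 475. A1715 had 1.11% with no addition and 0.740%, 0.830% and 0.829% with rising CHX, so that all 3 CHX libraries were lower and showed no order by dose. A1729 had 1.05% with no addition and 0.897%, 0.696% and 0.746% with rising CHX.

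In limma, with the 3 CHX libraries as a class against both libraries without drug, 0 of the 39 members were called, 2 had an unadjusted p under 0.05 (A1715 and C1846, both lower), and 0.778% of all nucleotides were called. A1715 had a difference of -0.20 (SE 0.065, limma adjusted p = 0.158, lower in 3 of 3 CHX libraries). Without centring, limma called 21 of the 39 with CHX, and testing all A and C without a filter gave 2 (A1715 and C1846). For these settings the share called over all nucleotides was not counted. Before centring, the members' median shifts from no addition with CHX were close to those over all tested nucleotides, as given above.

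**Figure D4:**
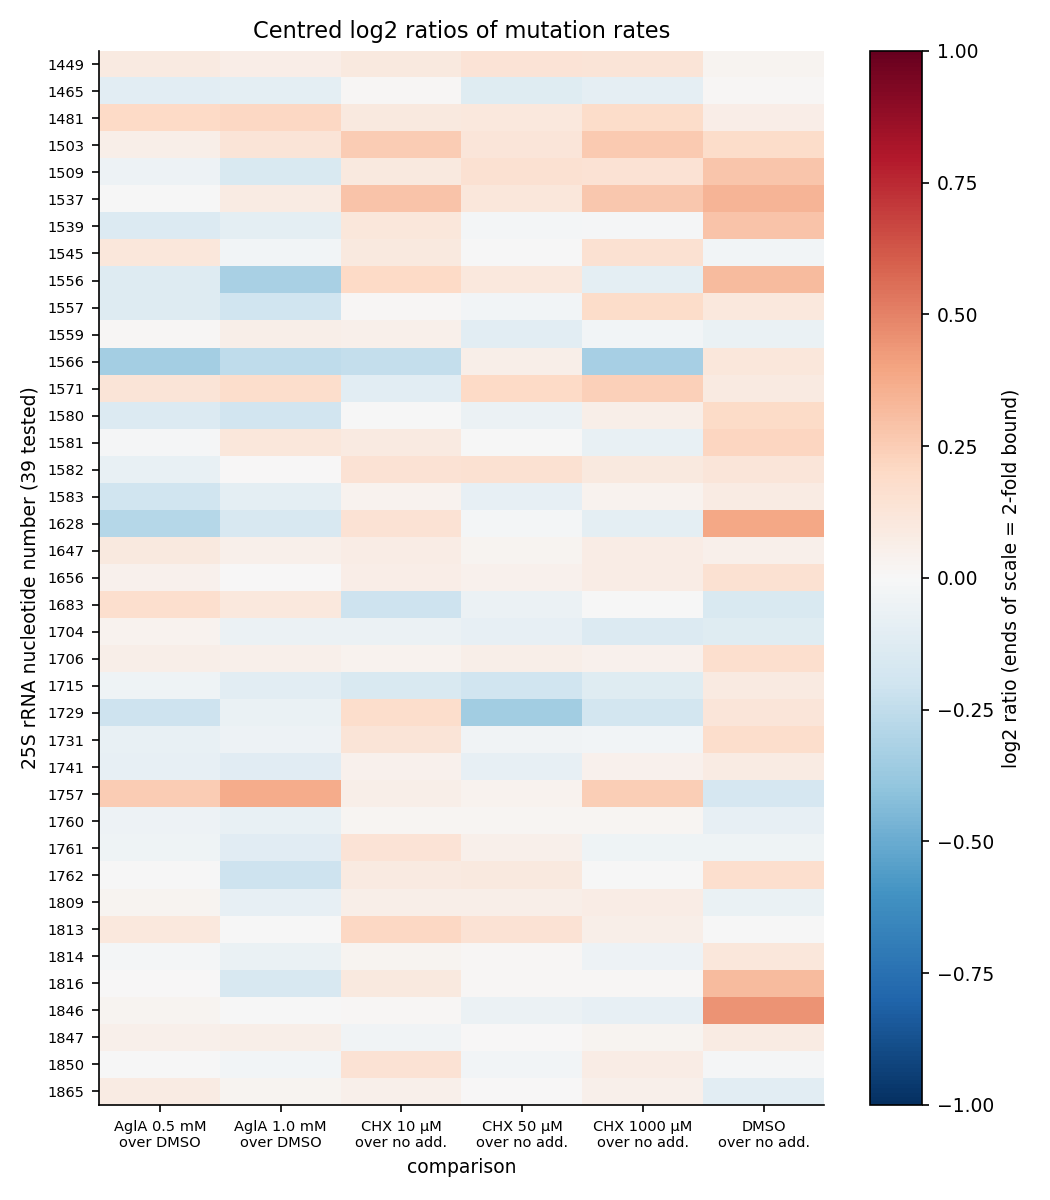
Centred log2 ratios of the 39 tested nucleotides (rows, by number) for AglA over DMSO, CHX over no addition, and DMSO over no addition. The colour scale ends at the 2-fold bound, which no cell reaches. The strongest cell is C1846 in the DMSO column, at 0.45.

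Set against each other, AglA and CHX gave a call at C1846 and at no other member in the fit as described, and the number called depended on the settings. C1846 had 3.22% and 3.17% under the lower and higher AglA dose, and 1.92%, 2.10% and 1.95% under rising CHX. Its rates were 3.31% with DMSO, 2.5% with no addition and 0.0702% without DMS. All AglA rates lay above all CHX rates, with the DMSO rate beside the AglA rates and the no-addition rate between the groups. In limma AglA minus CHX was 0.51 on the log2 scale (SE 0.11, adjusted p = 0.0252, each of 2 AglA libraries above each of 3 CHX libraries). It was the 1 member of 39 called (2.56%), with 8 at an unadjusted p under 0.05, where limma called 11.9% of all 514 nucleotides. For the alternatives that follow, the share called over all nucleotides was not counted. The number called in the region was 14 without centring, 4 with a filter at 2%, 3 without a filter and 2 with 0.01 added to the rates. It was 6 when either the DMSO or the no-addition library was left out, neither of which enters this contrast. The centred ratios at C1846 were 0.03 and -0.01 for AglA over DMSO, 0.01, -0.06 and -0.09 for rising CHX over no addition, and 0.45 for DMSO over no addition. The labels do not give the solvent of CHX, so the drugs cannot be told apart from their solvents here. The call was lost when either AglA library or the 10 or 50 µM CHX library was left out (limma adjusted p = 0.141, 0.127, 0.0716 and 0.0709), while over all alternatives the adjusted p ranged from 8.58e-05 to 0.141 and the difference from 0.39 to 0.66. C1846 lies at position 453336 of chromosome XII, as the first tested base of the stretch 25S 1841-1855. Its neighbour A1847 had 3.63% and 3.69% with AglA against 2.69%, 3.18% and 3.06% with CHX, before centring. After centring, AglA minus CHX at A1847 was 0.14 (SE 0.056, limma adjusted p = 0.119), and A1847 was not called.

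At the matched molar dose, 1.0 mM AglA over 1000 µM CHX, the members' log2 ratios ranged from -0.28 to 0.53 with a median of 0.02, and 1 of the 39 (C1846) reached a size of 0.5, against 18 of the other 475 (3.79%). C1628, the member next to C1846 in its difference between DMSO and no addition, had 2.00% and 2.22% with AglA and 2.58% with DMSO, and 2.04%, 1.72%, 1.75% and 1.57% with no addition and rising CHX. Its AglA rates lay below the DMSO rate, nearer to that of no addition. Those of C1846 were also below its DMSO rate, by a smaller margin.

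**Figure D5:**
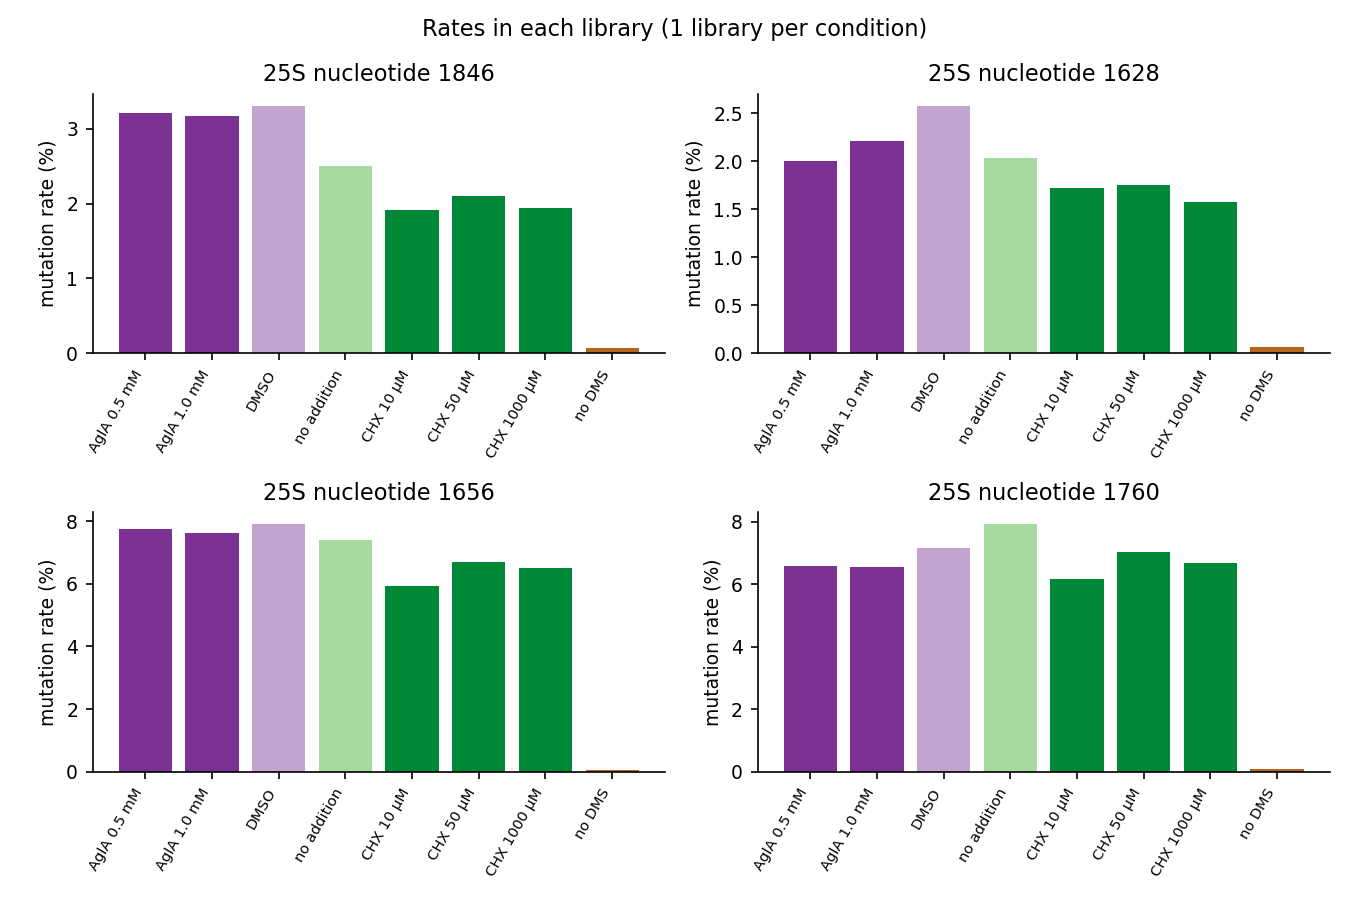
Mutation rates (%) of C1846, C1628, A1656 and A1760 in each of the 8 libraries, 1 bar per library and no error bars, because each condition has 1 library. At C1846 both AglA bars and the DMSO bar stand above 3% and the 3 CHX bars near 2%. At A1656 and A1760 all DMS bars lie between 5.94% and 7.91%.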

How the data were processed

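The authors deposited 1 table with a column per library, each value the fraction of reads with a mismatch at a nucleotide. Rates are printed as percentages. Per the labels' protocols, rRNA was fragmented, size-selected, ligated to a linker and copied with TGIRT-III, and full-length cDNA was circularised and amplified, so methylation is read as mismatches. Per the submitters' processing notes, cutadapt, Bowtie2 and the build sacCer3 were used, with no version or role stated. The sources used here give no read filters, and the fraction holds no read depth. Libraries were assigned by title.

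The 514 A and C whose rate averaged 0.5% or more across the 7 libraries with DMS were tested on centred log2(rate + 0.001). limma 3.58.1 (R 4.3.3, lmFit, eBayes with trend, 4 residual degrees of freedom) compared the classes AglA, CHX and no drug, with Benjamini-Hochberg adjustment over all 514 at 0.05. It was also run on simulated data, which cannot show the spread between repeats of a condition. The AglA and CHX comparisons share their control libraries. Folding used ViennaRNA 2.7.2, and other steps Python 3.11.15 with numpy 2.4.6, pandas 2.3.3, scipy 1.17.1 and matplotlib 3.10.9. Genome positions come from the RefSeq R64 coordinates of RDN25-1 (451786 to 455181), whose length equals that of 25S in the table.

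Nucleotides named were the 10 with the highest rates, those called, the 5 lowest and highest ratios per comparison, the ribose-methylated ones, members of GNRA-like loops and of reactive stretches, and G or U that responded to DMS. The methylated positions were listed from memory. C1639, also on that list, is left out because it is not established as methylated in 25S. The members and lists were chosen with earlier results of these data known, and the GAGA and ACC searches, the window counts and the wide view of A1656 were added after the rates were seen. Alternatives were other constants, filters, bounds, centring, subtraction of the rate without DMS, single controls, eBayes without trend, other folds and leaving out each library.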

Additional observations from a re-analysis of the deposited data

Results flagged for a closer look

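Among the 228 G and U of the region, which no drug comparison used, G1521 and G1604 gave at least 4-fold more signal with DMS than without, with DMSO and also with no addition, a signal above the library without DMS in bases outside the main measurement. Over all G and U of the 4 rRNAs the same rule called 0.747%. G1521 had 0.972% and 1.05% with AglA, 1.02% with DMSO, and 1.10%, 0.964%, 1.02% and 0.989% with no addition and rising CHX, against 0.0823% without DMS. G1604 had 0.434% and 0.382% with AglA, 0.437% with DMSO, and 0.403%, 0.398%, 0.398% and 0.383% with no addition and rising CHX, against 0.0223% without DMS. What underlies these mismatches was not tested.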

How the results depend on the processing

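The number of A and C of the region that passed the 4-fold rule was 37, and it became 71 with 0.0001 added to the rate, 8 with 0.01 added and 18 with a 10-fold bound. Only for the 37 was the share of all A and C counted. The 2-fold rule called 0 members for each drug library and for DMSO against no addition under each alternative run, the 1.5-fold bound included. The SD of the members' log2 ratios fell with 0.01 added, to 0.0989 for DMSO against no addition, to 0.0731 and 0.0762 for AglA at 0.5 and 1.0 mM against DMSO, and to 0.0721, 0.0652 and 0.0814 for CHX at 10, 50 and 1000 µM against no addition. With a filter at 2% it was 0.0617 and 0.0881 for AglA at both doses, and 0.0724 and 0.0590 for CHX at 10 and 50 µM, and without a filter it was 0.180 for CHX at 10 µM. In limma, CHX against no drug called 21 members without centring and 2 without a filter, in place of 0. AglA against CHX called 2 with 0.01 added, 4 with a filter at 2%, 14 without centring and 3 without a filter, in place of 1. The share called over all nucleotides was not counted for these settings or for the runs that left out a library. Leaving out each library in turn gave 0 to 4 members for AglA against no drug, 0 to 3 for CHX against no drug and 0 to 6 for AglA against CHX, and a class left with 1 library was assumed to vary like the others. The 6 came from leaving out either library without drug, which does not enter that contrast and so acts through the shared spread. Restricting tested nucleotides to those that passed the 4-fold rule, chosen after seeing the data, left the region's highest rate at 7.12% and lowered that of the first segment of 25S to 20.9% and that of the segment after the region to 28.4%. C1846 stayed higher with AglA than with CHX throughout. The share of tested nucleotides predicted unpaired was 61.5% with 50 nucleotides added at each end of the folded sequence and 59.0% in the minimum free energy structure. Unknown read depth leaves the precision of each rate open. No paired analysis was possible because each condition has 1 library and the labels give no replicate numbers.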
